A study of Danio rerio with 15 samples.

Results

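The engrailed 1 paralogs of the zebrafish, en1a and en1b, were followed through the 3 cell populations of a microarray study of the embryonic spinal cord. Every probe set that the platform annotation assigns to en1a or en1b was taken. This gave 2 of 15502 probe sets tested, 1 for each gene, so neither gene could be checked with another probe set. All embryos had been kept at 28.5 °C for their first 10 hours, then at 32 °C, and were collected 27 hours after fertilization. The V1 group (6 arrays) held cells labelled as V1 interneurons, also called CiA, sorted by GFP from the line Tg(pax2a:GFP), with the pronephros region cut away before the sort. The all-neuron group (5 arrays) held cells labelled as all spinal neurons, sorted by EGFP from Tg(elavl3:EGFP). The trunk group (4 arrays) held trunk cells of spinal cord and other tissues, with no transgenic line named in the labels. The V1 cells are thus defined by activity of a pax2a control sequence and the neurons by one of elavl3, and neither reporter is driven by an engrailed gene. The labels do not say whether arrays of a group came from separate clutches, so p-values measure the spread between these samples, part of which may be technical.

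Engrailed proteins are homeodomain transcription factors. They mostly repress their targets, recruiting corepressors of the Groucho (Tle) family, and bind DNA together with Pbx partners. Engrailed 1 is the defining marker of V1 interneurons in vertebrates, inhibitory neurons with axons on their own side of the cord that act on motor circuits and sensory input. A genome duplication left teleost fish with a and b copies of both engrailed 1 and engrailed 2. Outside the cord, engrailed genes are known at the boundary of midbrain and hindbrain and in muscle pioneers, a small set of slow muscle cells.

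Signals are RMA values in log2 units, where a difference of 1 is a doubling of signal. The median of all values was 5.52 and the range 2.01 to 14.26. Levels are signals of single probe sets. No detection call was used, so a value near the foot of the scale is not known to lie above background. Apart from the place of en1a among all probe sets of an array, only the change of a probe set between groups is compared. The level of one gene is not otherwise set against that of another. In RNA from bulk sorted cells, fewer cells of a type and less RNA per cell cannot be told apart. The 3 comparisons share arrays and so are not independent of each other. Genes of other cell types also differed between groups, as given below beside en1b.

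V1 cells carried more en1b signal than spinal neurons at large. In the V1 arrays en1b read 10.83 at the lowest, 11.27 at the median and 11.49 at the highest, against 9.78, 9.37, 9.49, 9.79 and 9.76 in the all-neuron arrays. The lowest V1 array lay above the highest all-neuron array, so the groups did not overlap. The signal was 3.06-fold higher in V1 arrays (95% interval 2.56 to 3.67; log2 difference 1.61, SE 0.12, adjusted p = 2.78e-07 by limma over all probe sets tested). At this threshold, adjusted p under 0.05, 22.0% of all probe sets were called, 12.7% as higher and 9.3% as lower in V1 arrays, and 8.04% of all probe sets were higher in V1 arrays with no overlap. Of the 1966 probe sets called higher, en1b ranked 228 by size of difference. By adjusted p-value, where ties are possible, it ranked 40 of all probe sets tested.

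The paralog en1a read close to the foot of the scale on every array. In V1 arrays it read 2.76 at the lowest, 2.93 at the median and 3.06 at the highest, against 2.93, 2.96, 2.99, 2.74 and 3.15 in all-neuron arrays. The groups overlapped throughout. It did not pass the test (log2 difference −0.04, SE 0.10, adjusted p = 0.814 by limma), and the 95% interval of the difference ran from −0.24 to 0.16. Between 4.16% and 7.82% of probe sets read lower than en1a on V1 arrays, and between 3.34% and 8.95% on all-neuron arrays. At such signals these arrays do not show whether V1 cells carry en1a transcript or none. Of the 2 genes, 1 was therefore called between V1 and all neurons, beside 22.0% of all probe sets.

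**Figure D1:**
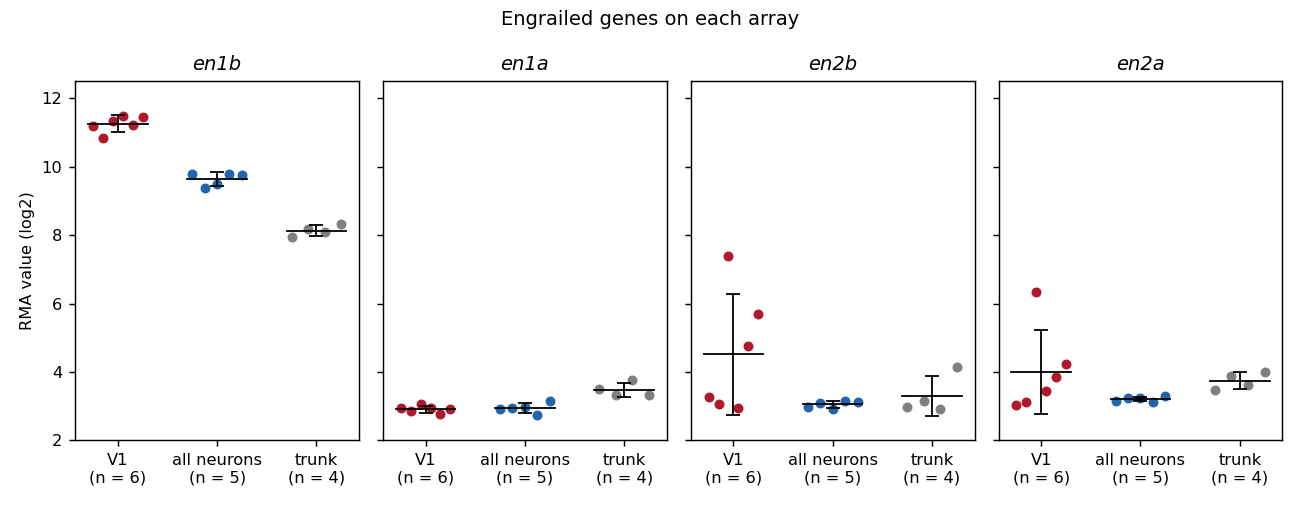
RMA value (log2, vertical axis) of en1b, en1a, en2b and en2a on each array of the V1 (6), all-neuron (5) and trunk (4) groups; points are arrays, lines are group means and bars are 1 SD. For en1b the groups form 3 separate steps, en1a stays at the foot of the scale, and en2b and en2a are raised on only some V1 arrays.

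The signals of the paralogs were also set against each other as en1b minus en1a within each array, which cancels the scaling of the array. The offset between the probe sets has no meaning of its own, and only its change between groups was read. It read 8.26, 7.98, 8.27, 8.54, 8.45 and 8.54 in V1 arrays, against 6.85, 6.41, 6.50, 7.05 and 6.61 in all-neuron arrays and 4.46, 4.83, 4.31 and 5.00 in trunk arrays. No group overlapped another. The change between V1 and all neurons was 1.66 (two-sided exact permutation test, p = 0.00433, the smallest these arrays allow, 0.013 adjusted over the 3 comparisons). It was 3.69 between V1 and trunk (exact p = 0.00952, adjusted 0.0143) and 2.03 between all neurons and trunk (exact p = 0.0159, adjusted 0.0159). Because en1a lay near the foot of the scale, this difference mostly restates the step of en1b and does not show how en1a transcript changed.

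Against trunk cells the en1b difference was among the largest of those higher in V1 arrays. The trunk arrays read 7.95, 8.17, 8.08 and 8.33 for en1b, below every V1 array. The signal was 8.70-fold higher in V1 arrays (95% interval 7.18 to 10.5; log2 difference 3.12, SE 0.13, adjusted p = 5.45e-10 by limma). Among 3411 probe sets called higher in V1 arrays, en1b ranked 4 by size of difference. No probe set tested had a lower adjusted p-value, though adjusted values can tie, so others may share this place. For en1a the trunk arrays read 3.49, 3.33, 3.77 and 3.33, each above the highest V1 array. Here en1a fell by 0.57 on the log2 scale in V1 arrays (SE 0.10, adjusted p = 0.000328), and between 10.8% and 19.5% of probe sets read lower than it on trunk arrays. Both genes were called, in opposite directions, beside 40.0% of all probe sets, 22.0% higher and 18% lower in V1 arrays; 15.3% of all probe sets were higher and 11.5% lower with no overlap. All en1a values lay near the foot of the scale, where these arrays do not show whether transcript was present or changed. The call was not kept against a minimum log2 difference of 0.5.

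All spinal neurons also carried more en1b signal than trunk cells. Every all-neuron array read above every trunk array, with a 2.84-fold difference (95% interval 2.33 to 3.47; log2 difference 1.51, SE 0.14, adjusted p = 3.56e-07 by limma). By size of difference en1b ranked 575 among 3219 probe sets called higher. Of 16 measured pan-neuronal genes, which mark neurons of any class, 14 had a larger difference here, and the 16 ranged from 1.49 to 2.50. Between V1 and trunk the same 16 ranged from −0.42 to 2.40, and 0 of 16 exceeded the 3.12 of en1b. In all-neuron arrays en1a fell by 0.53 relative to trunk (SE 0.11, adjusted p = 0.000717). Both genes were called between all neurons and trunk, beside 41.4% of all probe sets, 20.8% higher and 20.6% lower; 18.7% were higher and 18.1% lower with no overlap. With the mean of 67 ribosomal protein genes set equal on every array, the en1a difference was −0.04 (adjusted p = 0.821) and the median of all probe sets 0.456.

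Few probe sets shared the stepwise order of en1b. V1 arrays above all-neuron arrays above trunk arrays, with no overlap at either step, was found in 50 of 15502 probe sets (0.323%), of which 40 carried 1 gene symbol. Among them were 3 further V1 transcription factors, the LIM-homeobox gene lhx5, the homeobox gene otpb and pax2a. The V1 cells were sorted by a pax2a reporter, so the place of pax2a is not independent of the sort. The steps of en1b were even, with a gap of 1.04 between the lowest V1 and the highest all-neuron array and of 1.04 between the lowest all-neuron and the highest trunk array. For lhx5 these gaps were 0.21 and 1.91, for pax2a 0.35 and 1.12, and for otpb 1.26 and 1.02.

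The engrailed 2 paralogs gave another picture, with a wide spread among the V1 arrays. In V1 arrays 1 to 6, en2b read 3.27, 3.05, 7.38, 2.95, 4.75 and 5.69. The all-neuron arrays read 2.97, 3.09, 2.93, 3.14 and 3.13, and the trunk arrays 2.99, 3.15, 2.91 and 4.15. V1 arrays 3, 5 and 6 were high, while arrays 1, 2 and 4 lay among the all-neuron and trunk values. The same 3 V1 arrays were the highest for en2a, at 6.35, 3.84 and 4.24, against 3.04, 3.12 and 3.43 in V1 arrays 1, 2 and 4. Neither gene passed the test between V1 and all neurons (en2b 1.47, SE 0.63, adjusted p = 0.115, and en2a 0.79, SE 0.43, adjusted p = 0.221). Nor did either pass in the other comparisons with all arrays fitted.

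Some genes known for the midbrain and its surroundings varied with en2b across the V1 arrays. They were picked after values had been seen and are described with no test. Of 17 measured, including en2a and en2b, 4 read higher in each of V1 arrays 3, 5 and 6 than in arrays 1, 2 and 4 at their brightest probe set, and 5 at any probe set. These arrays were singled out by en2b and en2a, so both genes enter the counts by selection. The second count gives genes with several probe sets more chances. The share of all probe sets with this split was not counted, so neither number is read as a result. The forebrain and midbrain homeobox gene otx2b read 6.99, 5.61 and 6.22 in V1 arrays 3, 5 and 6, and 4.28, 4.34 and 4.60 in arrays 1, 2 and 4. The midbrain homeobox gene dmbx1a read 8.0, 5.79 and 6.51 in V1 arrays 3, 5 and 6, and 4.43, 4.62 and 4.54 in the other 3, while 2 all-neuron arrays also read high, at 5.79 and 5.41; a dimmer dmbx1a probe set stayed between 3.70 and 4.03 on V1 arrays. One otx1 probe set was likewise highest in these 3 arrays, at 5.79, 3.56 and 4.41, whereas the other otx1 probe set stayed between 3.34 and 3.63 on every V1 array. The boundary gene cnpy1 was highest in arrays 3 and 6, at 6.80 and 5.77. Most of the 17 did not follow: otx2a stayed between 4.42 and 4.93, pax5 stayed between 4.86 and 4.96, her5 between 4.01 and 4.60, and wnt1 between 4.66 and 5.05 on V1 arrays.

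The level of en1b did not split in this way. It read 11.33, 11.21 and 11.46 in V1 arrays 3, 5 and 6, and 11.20, 10.83 and 11.49 in arrays 1, 2 and 4. Without arrays 3, 5 and 6, en1b was higher in V1 than in all-neuron arrays by 1.53 (adjusted p = 2.44e-05 by limma) and than in trunk arrays by 3.04 (adjusted p = 4.05e-07), while the en2b difference from all neurons was 0.04. Arrays 3, 5 and 6 were the highest of the V1 group for en2b and en2a, so leaving them out lowers both genes there by selection. For en2a the V1 difference from trunk was then −0.55, against 0.26 with all arrays (adjusted p = 0.684 by limma), and no p-value is read from the smaller set. The all-neuron difference of en2a from trunk was −0.53 with and without those V1 arrays. Those groups did not overlap, beside 18.1% of all probe sets lower with no overlap. The difference did not pass with all arrays fitted (adjusted p = 0.414 by limma). It passed with only the all-neuron and trunk arrays fitted (adjusted p = 0.00341 by limma), without the wide V1 spread. Without V1 arrays 3, 5 and 6 the en1b difference was nearly as large as with them. Those arrays were picked by en2b and en2a, and whether cells with en2b signal added to en1b was not tested. The arrays do not show which cells gave the en2b signal.

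**Figure D2:**
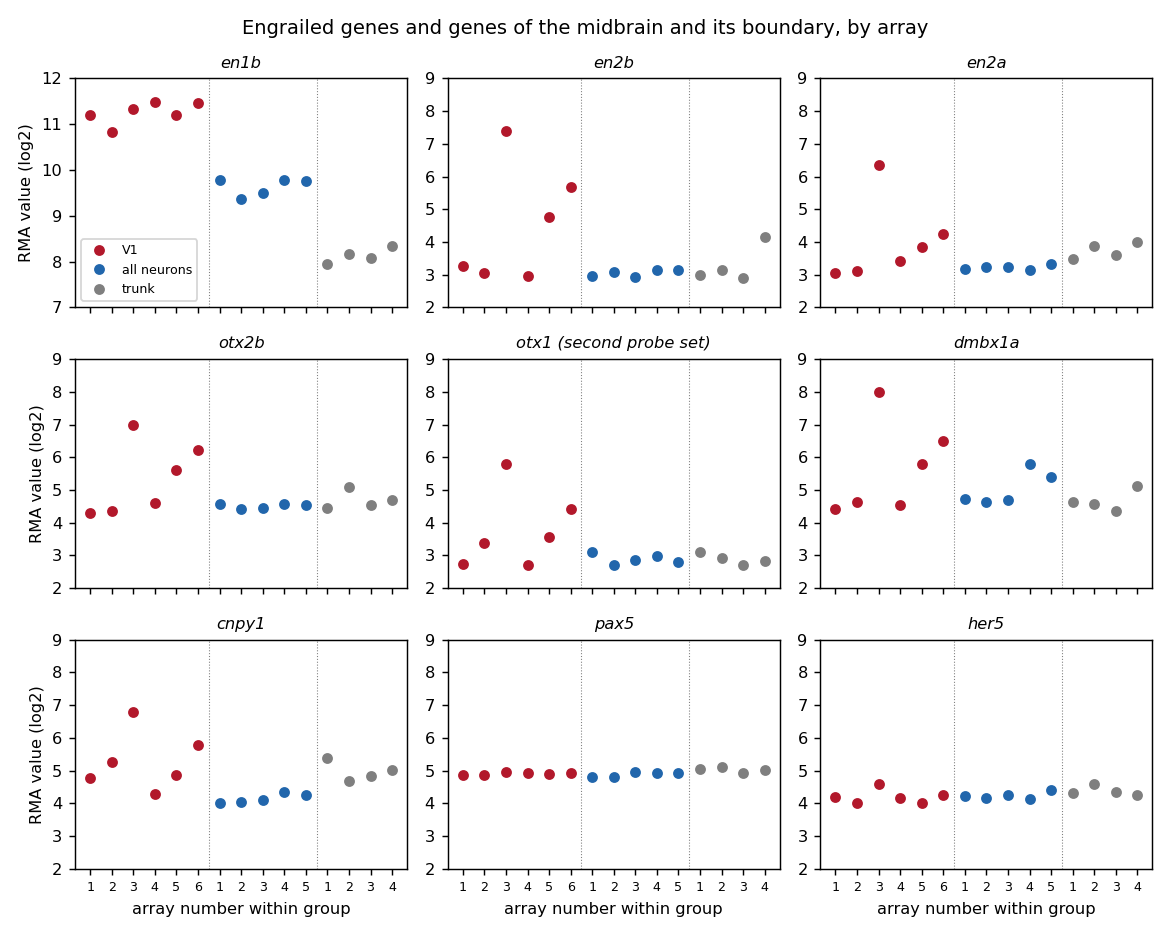
RMA value (log2, vertical axes) of en1b, en2b, en2a and genes of the midbrain and its boundary against array number within the V1, all-neuron and trunk groups, 1 point per array; the en1b panel has its own vertical range, and otx1 is shown by its dimmer, varying probe set. V1 arrays 3, 5 and 6 are raised for en2b, en2a, otx2b, otx1 and dmbx1a, whereas en1b, pax5 and her5 do not separate these arrays.

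The transcription factors that accompany engrailed 1 in V1 cells were followed through a list of 20, of which 13 were measured. Between V1 and all neurons 5 rose, 2 fell and 6 did not pass, with a median difference of 0.31. Over all probe sets 12.7% were called higher and 9.3% lower, with a median of −0.01. The paired-box gene pax2a, source of the control sequence in the V1 reporter, read 7.33 at the lowest, 8.20 at the median and 8.77 at the highest in V1 arrays. In the all-neuron arrays it read 6.98, 6.61, 6.60, 6.97 and 6.95, so the groups did not overlap, and the log2 difference was 1.30 (SE 0.20, adjusted p = 0.000196). A dimmer pax2a probe set differed by 0.29 and did not pass. The difference of otpb was 1.83 (SE 0.20, adjusted p = 8.57e-06) and was the only one on the list above that of en1b. The winged-helix gene foxd3 followed at 1.28, lhx5 at 0.81 (0.24 under ribosomal scaling, adjusted p = 0.208) and the LIM-homeobox gene lhx1a at 0.41.

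Of these, foxd3 is also a neural crest gene, and its V1 level stands beside crest markers that were higher in V1 arrays. The lhx1a call was lost when all-neuron array 1 (0.36, adjusted p = 0.0577) or array 2 (0.38, adjusted p = 0.0556) was left out, and without V1 arrays 3, 5 and 6 (0.25, adjusted p = 0.23) or all-neuron arrays 1 to 3 (0.22, adjusted p = 0.393), and neither of its other 2 probe sets passed. The genes that fell were foxp2 (−0.43) and sp8b (−0.99), which mark subsets of V1 neurons in the mouse. Values of foxp2 were low throughout, between 4.07 and 4.82 in both groups. For sp8b, V1 array 3 read 8.0, among the all-neuron values of 7.53 to 8.33, and the other V1 arrays read 6.53 to 7.12. Without all-neuron arrays 1 to 3 the sp8b difference was −0.62 and did not pass (adjusted p = 0.242).

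Against trunk, 8 of the 13 V1 factors rose and 1 fell (median 0.87, beside −0.02 over all probe sets, of which 22.0% were called higher and 18% lower). The largest differences were those of otpb (3.37), lhx5 (3.08) and pax2a (2.82), which read alongside the 3.12 of en1b. Only sp8b fell (−0.87), and without trunk array 2 it did not pass (−0.70, adjusted p = 0.0716), nor without trunk arrays 1 and 2 (−0.51, adjusted p = 0.276). Between all neurons and trunk 7 rose and 0 fell by limma's adjusted p (median 0.80, beside −0.03 over all probe sets, of which 20.8% were called higher and 20.6% lower), led by lhx5 (2.27), lhx1a (1.92) and the bHLH gene bhlhe22 (1.70). In that comparison 5 of the 13 exceeded the difference of en1b, whereas 1 of 13 did so in each comparison with V1.

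**Figure D3:**
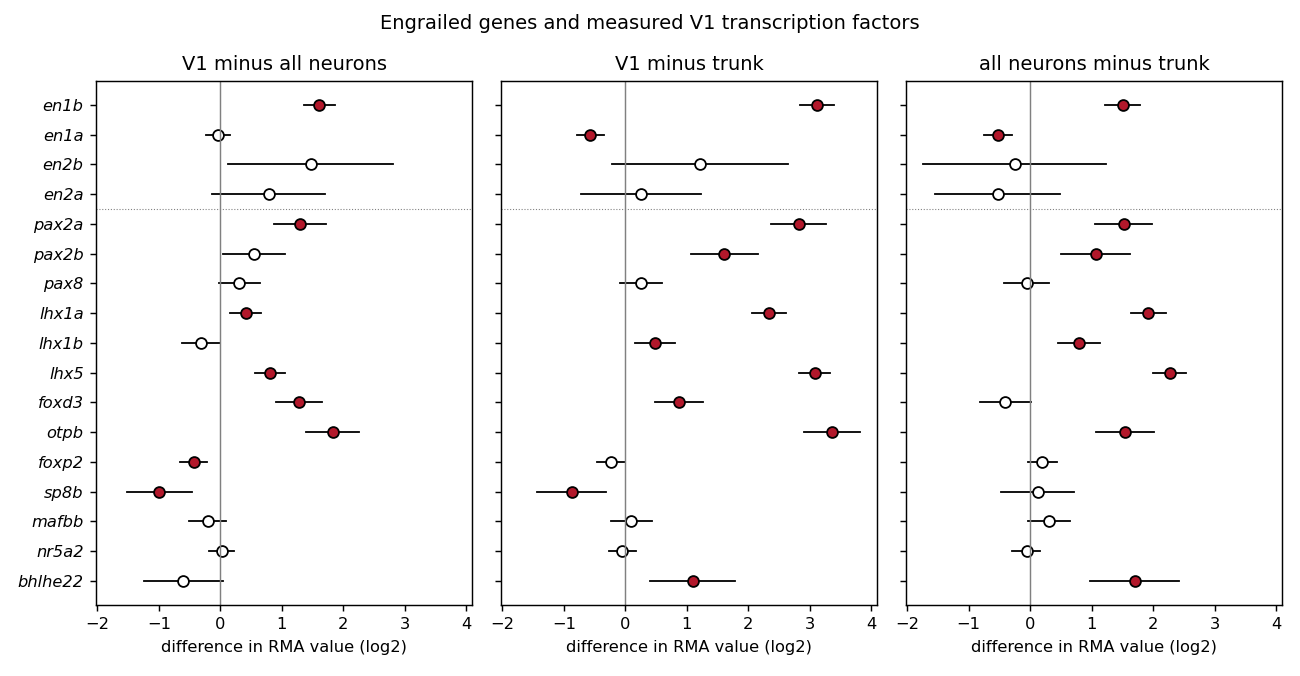
Log2 difference in RMA value (horizontal axes) of the engrailed genes and the 13 measured V1 transcription factors between V1 and all neurons, V1 and trunk, and all neurons and trunk; points are limma estimates, bars are 95% intervals, and filled points passed the adjusted threshold. In both comparisons with V1, en1b lies with otpb and pax2a at the right, en1a lies at or left of 0, and the intervals of en2b and en2a are wide.

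Progenitor factors that act in and around the ventral domain from which V1 cells arise, before engrailed 1 is switched on, were measured for 9 of 15 listed. Between V1 and all neurons 0 rose, 3 fell and 6 did not pass by limma's adjusted p (median −0.39, beside −0.01 over all probe sets, of which 12.7% were called higher and 9.3% lower). The paired-box genes pax6a and pax6b, needed in V1 progenitors, fell by 1.46 (adjusted p = 0.00253 by limma) and by 0.82 (adjusted p = 0.0191). The Iroquois gene irx3a fell by 0.65 (adjusted p = 0.00529). For irx3a, V1 array 3 read 9.19, and the other V1 arrays read at most 8.53. Without all-neuron arrays 1 to 3 both Pax6 calls were lost, at −1.01 for pax6a (adjusted p = 0.113) and −0.40 for pax6b (adjusted p = 0.393). The pax6b call was also lost without all-neuron array 3 alone (−0.68, adjusted p = 0.057) and without V1 arrays 3, 5 and 6 (−0.74, adjusted p = 0.0637). Against trunk, pax6a, pax6b and dbx1a fell in V1 arrays and irx5a rose.

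Genes for the proteins with which engrailed factors act, the Pbx and Meis homeodomain cofactors and the Groucho family, were measured for 12 of 18 listed. Between V1 and all neurons 2 rose, pbx2 (0.26) and tle2a (0.39), and 1 fell, meis1b (−0.37), with a median of 0.24, beside −0.01 over all probe sets. The 3 called of 12 lie near the share of all probe sets called, 22.0%. These 3 calls lay close to the threshold (adjusted p = 0.049, 0.0496 and 0.043), and the number called higher ran between 0 and 4 when single arrays were left out. Against trunk 7 rose and 1 fell in V1 arrays (median 0.79, beside 22.0% and 18% of all probe sets), and 7 rose and 0 fell by limma's adjusted p in all-neuron arrays (median 0.86, beside 20.8% and 20.6%). The largest differences between V1 and trunk were those of pbx3b (1.82), meis2a (1.77) and meis3 (1.71). In all-neuron arrays these 3 genes rose by 1.36, 1.41 and 1.51 relative to trunk. The 1 that fell in V1 arrays against trunk was meis1a (−0.43, adjusted p = 0.0448).

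Besides en1b and 5 of 13 V1 factors, markers of other cells read higher in V1 than in all-neuron arrays. Over all probe sets 12.7% were called higher and 9.3% lower in this comparison. Pan-neuronal genes had mean levels of 9.55 to 10.04 over the 16 genes in V1 arrays, 9.99 to 10.53 in all-neuron arrays and 8.08 to 8.70 in trunk arrays, and 0 rose and 5 fell in V1 relative to all neurons. Blood and vessel genes rose in 13 of 13, with list means of 7.16 to 8.52 in V1 arrays, against 4.29 to 4.46 in all-neuron arrays. Neural crest and pigment genes rose in 9 of 9 (7.63 to 8.45 in V1 arrays against 5.79 to 6.17 in all-neuron arrays), and pronephros genes in 6 of 10 (6.75 to 7.30 in V1 arrays against 5.13 to 5.92 in all-neuron arrays). Skeletal muscle genes fell in 12 of 15 (6.87 to 7.80 in V1 arrays against 7.65 to 9.70 in all-neuron arrays), and all-neuron arrays 1 to 3 carried the higher muscle values. Without those 3 arrays the en1b difference was 1.48 between V1 and all neurons. Against trunk, pronephros genes also rose in V1 arrays in 6 of 10, and neural crest and pigment genes in 8 of 9. Blood and vessel genes rose there in 2 of 13, beside 22.0% of all probe sets called higher. The part of these other cells in the en1b differences was not tested.

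The pioneer cells of slow muscle are a known site of engrailed transcript. The slow myosin gene smyhc1 had a mean of 9.81 over V1 arrays, 9.71 over all-neuron arrays and 11.6 over trunk arrays, and it fell in V1 arrays against trunk by 1.79 (adjusted p = 0.0339 by limma). Of 3 measured genes of the slow muscle list, which holds en2a too, 1 passed against trunk, beside 40.0% of all probe sets. Trunk arrays had skeletal muscle list means of 11.18 to 11.40. The part of muscle cells in the trunk levels of en1a or en1b was not tested. A control probe set of the array, AFFX-Dr-U43284-1_s_at, differed widely between the groups. It read 10.16 to 10.76 in all-neuron arrays and 4.98 to 5.59 in V1 arrays. In the trunk group it read 8.02 and 8.16 in arrays 1 and 2 but 5.63 and 5.71 in arrays 3 and 4. The cause was not tested. Trunk values of en1b did not split between arrays 1 and 2 and arrays 3 and 4.

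Within the V1 group, the 6 arrays spanned 0.65 for en1b, against 1.45 for pax2a, and 6 relations with other measures were examined over them. The closest was with pax2a, the gene whose control sequence marks the sorted cells (Pearson's r = 0.84, exact permutation p = 0.0639, adjusted p = 0.383; Spearman's rho = 0.77, exact p = 0.103, adjusted p = 0.617). Without arrays 2 and 6, which lay farthest from the pax2a median, r was 0.22 over 4 arrays. Leaving out the ends of the range can itself lower r, so this does not settle what the relation rests on. With the list means of pan-neuronal, blood and vessel, neural crest, pronephros and skeletal muscle genes, r was 0.41, −0.39, −0.34, −0.20 and 0.28. Without the 2 arrays farthest from each list's median, these were −0.18, 0.70, −0.22, −0.13 and 0.18. None of the 6 relations passed (exact permutation tests).

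Over all 15 arrays, the genes whose pattern was most like that of en1b were ranked by Pearson's r, which mostly reflects the steps between the groups. The first 8 were tdh (0.98), pax2a (0.979), sin3aa (0.972), otpb (0.97), vipas39 (0.962), ppm1h (0.952), lhx5 (0.951) and ivns1abpa (0.95). The list thus held 3 V1 transcription factors beside genes of other kinds, such as tdh, a threonine dehydrogenase, sin3aa, a scaffold of a histone deacetylase corepressor, and vipas39, a gene of vesicle traffic. Of those factors, pax2a is the source of the V1 reporter, and its place is not independent of the sort. For ivns1abpa, another probe set did not pass in any comparison. When each group's mean was taken away first, the highest r over the 15 arrays were those of calb2b (0.932), si:ch211-195b15.8 (0.924), cnrip1a (0.912), cdk5r2a (0.911), kiaa0513 (0.90), zbtb8a (0.897), spock3 (0.897) and nsfa (0.893). No gene was among the first 8 by both measures. The arrays share RNA amplification and scaling, and these values describe the 15 arrays only.

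**Figure D4:**
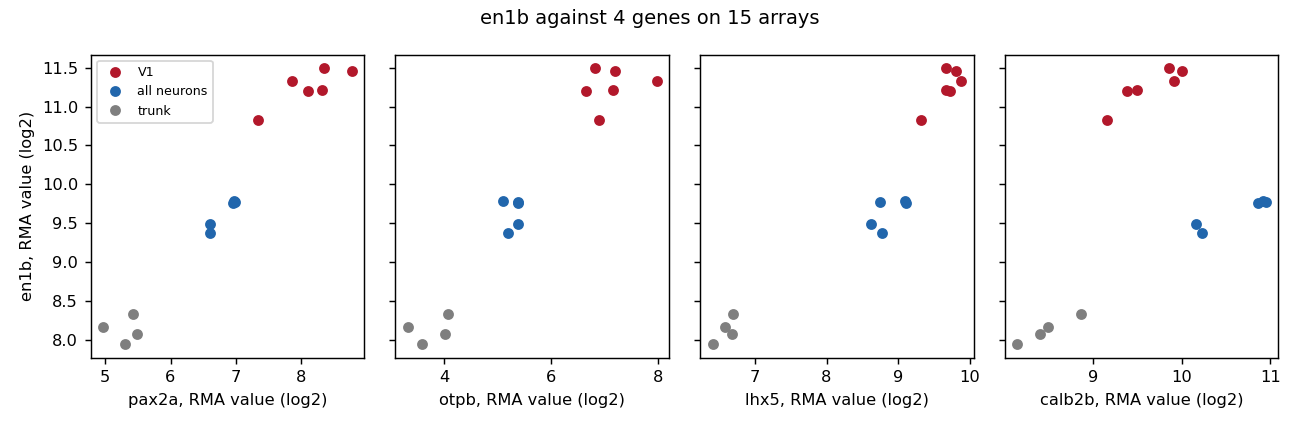
RMA value of en1b (log2, vertical axis) against those of pax2a, otpb, lhx5 and calb2b (log2, horizontal axes) on the 15 arrays, coloured by group. For pax2a, otpb and lhx5 the 3 groups climb in the order of en1b, whereas calb2b was highest in all-neuron arrays.

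The calcium-binding protein gene calb2b shows how the second ranking differs from the first. It read 0.99 lower in V1 than in all-neuron arrays (adjusted p = 0.00166 by limma) and 1.15 higher in V1 than in trunk arrays (adjusted p = 0.000334), yet arrays high for en1b within their group were high for calb2b.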

How the data were processed

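The authors ran RMA in Affymetrix Expression Console, as the submitters' processing notes name both, and deposited the resulting log2 values. Program versions, the chip definition and the genome build: not given in the sources used here. RNA of sorted cells had passed through 2 rounds of amplification before hybridization to the Affymetrix zebrafish array, per the labels' protocols, which can distort relative levels.

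Control probe sets (115 of 15617) were set aside. One limma 3.58.1 model of group means covered all 15 arrays (R 4.3.3; lmFit, eBayes), and p-values were adjusted by Benjamini-Hochberg over 15502 probe sets within each comparison, two-sided, threshold 0.05. Platform symbols gave 1 gene for 10795 probe sets, several for 135 and none for 4572. Genes entered lists through their brightest probe set. Exact permutation tests used scipy 1.17.1. The fit was checked on simulated data.

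Members, lists and tests were chosen with earlier results of these data known. Named genes were the engrailed genes, pax2a and elavl3, the 8 genes most like en1b by each of 2 measures, members of counts of 5 or fewer, and otherwise the largest called differences of each list. The midbrain genes and 3 omissions of groups of arrays were chosen after the data were seen. Alternatives covered scaling, variance prior, dim probe sets, array weights, replicate number and single arrays. The number of arrays limits the precision.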

Additional observations from a re-analysis of the deposited data

Results flagged for a closer look

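Of 93 groups of 4 to 6 arrays tested for a single array far from the rest of its group, 6 held one; chance flags about 1 in 20 groups. Among the engrailed genes, V1 array 3 read 6.35 for en2a, with the next V1 array at 4.24; the same array read highest for en2b. It also read 9.19 for irx3a, next to 8.53. In the all-neuron group, array 1 was low for foxd3 (8.18, next to 8.44) and high for pbx2 (8.88, next to 8.74). In the trunk group, array 4 was low for lhx1a (6.24, next to 6.42) and array 2 was low for meis1b (9.01, next to 9.41). No array stood apart in this way for en1b or en1a.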

How the results depend on the processing

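The direction and call of en1b held under all 13 alternatives and all 15 omissions of single arrays: 1.05 to 1.72 and 1.55 to 1.70 between V1 and all neurons, 2.83 to 3.14 and 3.06 to 3.21 between V1 and trunk, 1.34 to 1.99 and 1.45 to 1.57 between all neurons and trunk. With ribosomal protein means set equal, the median of all probe sets moved to −0.58, −0.106 and 0.456 in these comparisons, 12292 probe sets were called between V1 and all neurons (494 higher, 11798 lower, 4.02% higher against 57.7%) and 10027 between all neurons and trunk (87.8% higher against 50.2%). en1a then differed by −0.61 between V1 and all neurons (adjusted p = 0.0018), close to the median shift, and by −0.04 between all neurons and trunk (adjusted p = 0.821). Under this scaling lhx1a (−0.16), pbx2 (−0.31) and tle2a (−0.18) reversed between V1 and all neurons, and lhx5 no longer passed (0.24, adjusted p = 0.208). Tested against a minimum of 0.5, en1a did not pass against trunk (−0.57 for V1, −0.53 for all neurons), lhx5 and pax6a did not between V1 and all neurons (adjusted p = 0.155 and 0.0696), and 626, 1731 and 2399 probe sets passed; at a threshold of 0.01, 1985 did between V1 and all neurons. The share called higher between V1 and all neurons was 48.7% with array medians set equal. elavl3 differed by 0.13 between V1 and all neurons at its brightest probe set (not called) and by −0.60 as a mean of 4; 1 probe set read −2.87 and the others 0.13 to 0.18. en2a differed by −0.55 between V1 and trunk without V1 arrays 3, 5 and 6, its highest V1 arrays, an omission that itself lowers the value.

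Changes of en1b minus en1a missed the threshold only where several arrays were left out together, designs whose smallest exact p, 0.0357 to 0.133, could not pass after adjustment. Without V1 arrays 3, 5 and 6 they were 1.58 between V1 and all neurons (adjusted exact p = 0.0536) and 3.61 between V1 and trunk (0.0571). Without all-neuron arrays 1 to 3 they were 1.51 between V1 and all neurons (0.107) and 2.18 between all neurons and trunk (0.133). Without trunk arrays 1 and 2 they were 3.69 between V1 and trunk (0.0952) and 2.03 between all neurons and trunk (0.0952). Among V1 factors, ribosomal scaling gave 3 higher and 6 lower between V1 and all neurons and 11 higher between all neurons and trunk; a filter on dim probe sets gave 1 lower between V1 and all neurons; the 1 lower against trunk became 0 without trunk arrays 1 and 2 (0 to 1 over single arrays); cyclic loess gave 1 lower between all neurons and trunk (0 to 1 over single arrays). Progenitor factors had 9 lower under ribosomal scaling. Among Pbx, Meis and Groucho genes between V1 and all neurons, the number higher was 1 under cyclic loess and under the dim filter, 0 under ribosomal scaling, 0 with the replicate block, 0, 0 and 4 without the V1, all-neuron and trunk arrays named above, and 0 to 4 over single arrays; the number lower was 6 under ribosomal scaling, 2 with probe sets averaged, 0 without the V1 or all-neuron arrays, and 0 to 2 over single arrays. Against trunk their number lower in V1 was 2 under cyclic loess, 0 with the block, 0 without the V1 or trunk arrays and 0 to 1 over single arrays; in all neurons it was 1 under cyclic loess, 1 without the all-neuron or trunk arrays and 0 to 1 over single arrays. The cause was not tested.

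Replicate numbers are shared between groups. Of 13 same-numbered pairs, 4 correlated above 0.1 (−0.135 to 0.356), and differently numbered pairs ran from −0.295 to 0.276. These values do not settle whether the numbers pair the samples, and the main fits treat the samples as unpaired. With the replicate number as a block the en1b differences were 1.57, 3.06 and 1.49.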

Other observations

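Inhibitory genes and genes of other spinal neuron classes were also compared between the groups. Of 9 genes of inhibitory transmission, 4 were measured. Between V1 and all neurons the vesicular transporter of inhibitory amino acids, slc32a1, rose by 0.41 (adjusted p = 0.0207 by limma), and the GABA-synthesizing enzymes gad1b and gad2 fell by 1.30 and by 1.63. Against trunk all 3 rose in V1 arrays, by 2.47, 1.36 and 1.01, beside 22.0% of all probe sets called higher. Of 6 measured genes of dI4, dI6 and V0 interneurons, classes that lie dorsal to V1 cells, gbx2 rose by 1.60 relative to all neurons, while dmrt3a and evx1 fell by 1.2 (adjusted p = 0.000734 by limma) and by 0.69 (adjusted p = 0.00448). The evx1 call was lost without all-neuron arrays 1 to 3 (−0.63, adjusted p = 0.0685). The gbx2 signal was highest in V1 arrays 3 and 6 (8.09 and 7.55, against 6.32 to 7.08 in the other 4). This gene is also on the list of midbrain and boundary genes described above. Relative to all neurons, genes of V2, Kolmer-Agduhr and V3 cells rose in 0 and fell in 8 of 9 measured. Those of motor and Rohon-Beard neurons rose in 0 and fell in 6 of 6. Over all probe sets 12.7% were called higher and 9.3% lower between V1 and all neurons. The part of a different mix of neuron classes in these differences was not tested.

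None of the measured genes within 3 places of either paralog, in the RefSeq annotation of assembly GRCz12tu, passed the test between V1 and all neurons. Beside en1b, arglu1b differed by 0.09 and −0.01 at its 2 probe sets, and efnb2b, the next gene, by 0.16 and −0.06. Against trunk arglu1b rose in V1 arrays at both, by 0.53 and 0.44, and efnb2b at 1 of 2, by 0.34 (adjusted p = 0.0419). Beside en1a, insig2 and marco differed by −0.01 and −0.08 between V1 and all neurons, and neither passed in any comparison, nor did ybey. The 4 probe sets of usp37 disagreed: against trunk 1 fell in V1 arrays (−0.38, adjusted p = 0.0217), and 2 others rose in all-neuron arrays (0.36 and 0.37). This assembly was used for the order of genes only.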
